A study of Mus musculus with 20 samples.

Results

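TFIIIC regions that were called in both wild-type (WT) libraries, in neither Rb1L/L library, and at no peak of condensin II numbered 5735, of 423013 merged TFIIIC regions on chromosomes 1 to 19. They were found by merging the peaks of the 4 TFIIIC lists wherever they shared at least 1 bp, keeping the 7027 regions (1.66% of all) with a peak in both WT lists and in no Rb1L/L list, and removing the 1292 regions that overlapped a peak of CAP-D3 or CAP-H2 in either genotype. The members were therefore 81.6% of the WT-only TFIIIC regions, and 1.36% of all merged regions. The presence of a TFIIIC peak in each of the 4 libraries, and the absence of a condensin II peak, were what chose them, so TFIIIC calls, scores and widths in all 4 libraries are given as a description. H3K27me3 was not used in the choice.

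The cells were mouse embryonic fibroblasts of the C57BL/6 strain, grown from E13.5 embryos to passage 4 and cycling asynchronously. WT cells were compared with cells of the Rb1L/L genotype, whose libraries are titled dL; the L allele alters the cleft of pRb that binds LXCXE motifs, and all libraries are otherwise of the same strain and passage. Chromatin immunoprecipitation and sequencing used an antibody to TFIIIC-220 in 2 WT and 2 Rb1L/L libraries fixed with 1% formaldehyde, H3K27me3 in 2 and 2 libraries fixed first with 2 mM EGS, a protein crosslinker, and CAP-D3 and CAP-H2 in 1 library per genotype and antibody fixed like those for H3K27me3. The labels do not say whether libraries of a group came from separate cultures, so the spread between them may be technical.

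TFIIIC is a multi-subunit factor that recognises the internal A and B boxes of tRNA genes and recruits TFIIIB and RNA polymerase III; it also binds sites without the polymerase, and in yeast and mammals it has been tied to the binding of condensin complexes. Condensin II, of which CAP-D3 and CAP-H2 are subunits, is nuclear throughout the cell cycle and shapes mitotic chromosomes. H3K27me3 is the mark of Polycomb-repressed chromatin and here serves as a readout that the choice did not use. By the input titles, the H3K27me3 libraries WT 2 and Rb1L/L 1 share an input with the condensin II libraries of their genotype, which the choice did use. By its title, the study asked how pRb brings condensin II to promoters; the regions below are those where TFIIIC calls differed between genotypes without any condensin II call. Positions are in mm9; the gene table at hand was of another build, so no gene, promoter or sequence was assigned to them.

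In the lists as deposited, WT-only regions were the rarest of the 15 combinations of libraries. Without a condensin II peak, the 5735 regions of WT 1 and WT 2 compared with 38893 regions of both Rb1L/L libraries alone, with 68740 of all 4 libraries, and with 10800 to 15812 for each of the 4 pairings of 1 WT with 1 Rb1L/L library. Both Rb1L/L lists were longer, with 286175 and 291040 peaks on these chromosomes against 195239 and 230951 in WT. With the same number of 195239 top-scoring peaks from each list, the rule gave 10451 regions, within the 10153 to 12674 of the mixed pairings and no longer the fewest, and both Rb1L/L libraries alone had 19655. How many reads lie behind each list is unknown. A condensin II peak was present at 18.4% (95% exact binomial interval 17.5 to 19.3) of the WT-only regions and at 3.13% (2.96 to 3.31) of the Rb1L/L-only regions. It was present at 5.30% (5.11 to 5.49) of the mixed pairings and at 9.23% (9.03 to 9.44) of the regions of all 4 libraries. Such intervals take in counting error alone, here and below. Regions of 1 WT library alone also had such a peak more often than those of 1 Rb1L/L library alone. It was present at 3177 and absent at 29734 regions of WT 1 alone, and present at 2551 and absent at 30123 of WT 2 alone. For Rb1L/L 1 alone these counts were 1667 and 45699, and for Rb1L/L 2 alone 1865 and 48272.

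**Figure D1:**
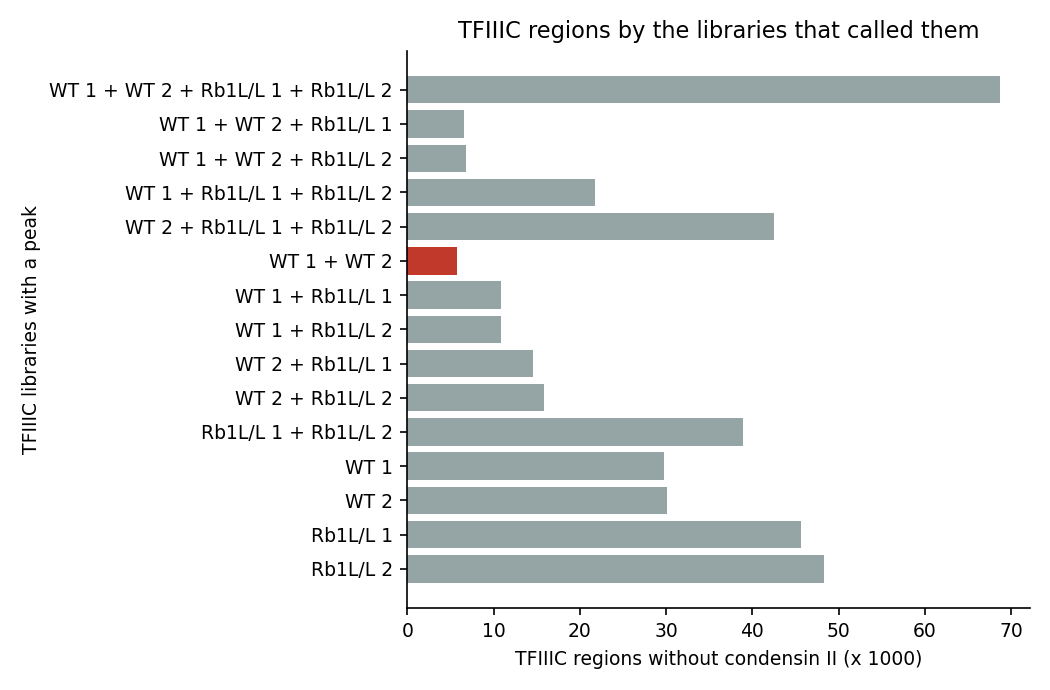
Number of merged TFIIIC regions without a condensin II peak (x axis, in units of 1000 regions) for each combination of TFIIIC libraries with a peak (y axis); the 5735 members are in red. The bar of WT 1 with WT 2 is the shortest in the lists as deposited, below the 10800 to 15812 regions of each mixed pairing.

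Nearly all members were made of a single peak from each WT library, and they were narrower and ranked lower than regions of all 4 libraries. One peak per WT library formed 5684 of the 5735 members (99.1%). In these, the stretch shared by both WT peaks had a median of 521 bp, or 69.3% of the merged region (quartiles 53.8 and 80.7%). Member widths ran from 361 to 4066 bp with a median of 773 bp, against a median of 1375 bp for regions of all 4 libraries without condensin II. The classes found in 1 genotype or in 1 library of each were about as narrow, with medians of 850 bp for Rb1L/L-only regions and 798 bp for the mixed pairings, and the median over all merged regions was 810 bp.

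The score of a peak is the peak caller's own value, which depends on read depth and input and has no common scale between lists. Among members it had a median of 148 in WT 1 and of 232 in WT 2, and WT 2 had the higher score at 4750 members (82.8%). Scores ran higher in the whole WT 2 list too, with a median of 289 against 172 in WT 1, so this is not a trait of members. As ranks within the own list, the median member stood at percentile 37.8 of WT 1 and 33.9 of WT 2, where the mixed pairings had medians of 41.2 and 39.6. Below the middle of both lists were 2787 members (48.6%), and in the top 25% of both lists were 78 (1.36%); for regions of all 4 libraries without condensin II, that last share was 26.1%.

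The lower of the 2 WT scores had a median of 144 in members (lowest 50.2, highest 674), 130 in the WT-only regions at condensin II, and 204 in the regions of all 4 libraries. This value compares raw scores between the WT lists, and at 82.8% of members it was the WT 1 score. It reached 300 at 128 members and 500 at 11. With the 87764 regions of both WT libraries without condensin II split by this score into 4 equal classes, members made up 0.88% of the highest class, 5.06% of the next, 8.50% of the third and 11.7% of the lowest. The share of WT regions missing from both Rb1L/L lists thus rose at each step down in WT score.

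**Figure D2:**
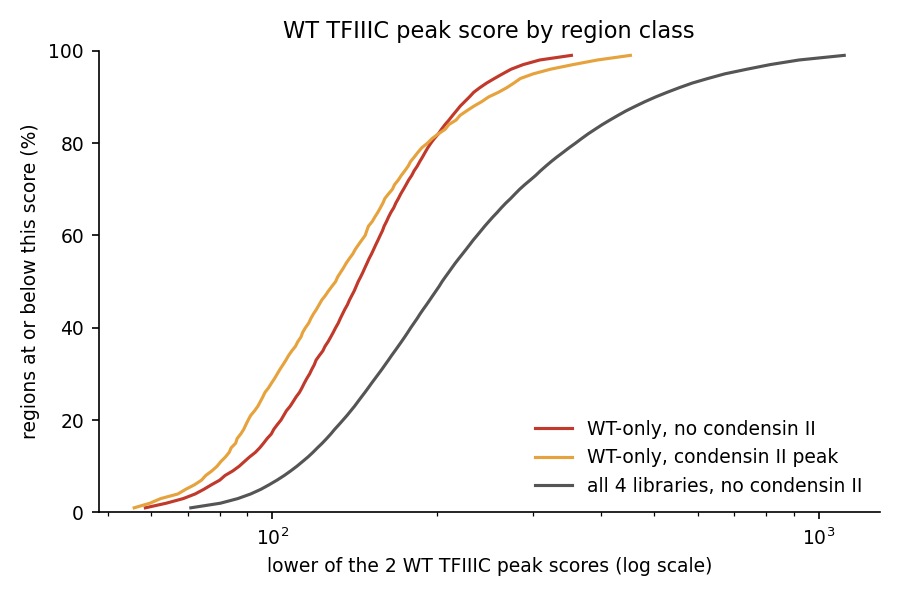
Percent of regions (y axis) at or below a given lower WT TFIIIC peak score (x axis, log scale), for members, WT-only regions with a condensin II peak, and regions of all 4 libraries without one. Members have a median of 144 and lie to the left of the regions of all 4 libraries, whose median is 204.

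Many members lay next to a TFIIIC peak that the Rb1L/L libraries did have. The nearest Rb1L/L peak was a median of 1234 bp away (quartiles 420 and 3251 bp). It was within 500 bp of 1609 members (28.1%), within 1000 bp of 2549 (44.4%) and within 10000 bp of 5325 (92.9%), which leaves 410 members (7.15%) with none in that reach. The opposite class was alike in this: 39.4% of the Rb1L/L-only regions without condensin II had a WT peak within 1000 bp and 91.8% within 10000 bp. At the border of the choice, the 3 nearest members adjoined an Rb1L/L peak with 0 bp between; one of them was chr5:140761095-140761695, with scores of 125 and 201 in WT 1 and WT 2. Just outside it, the smallest overlaps were of 2, 3 and 4 bp; that of 2 bp was at chr7:149794902-149796263, with scores of 160 and 258 in WT and one of 223 in Rb1L/L 2. In all, 43 members lay within 10 bp of an Rb1L/L peak, and 21 regions of both WT libraries were left out for sharing 10 bp or less with one.

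At regions without condensin II chosen in a like way, the Rb1L/L library left out of the choice called more than the WT library left out, as it did over all regions. Merged regions without a condensin II peak were chosen by a peak in 1 WT library and none in 1 Rb1L/L library, and the other library of each genotype was then read at them; the region boundaries came from all 4 lists. Chosen in WT 1 against Rb1L/L 1, 53048 regions had a peak in WT 2 in 23.6% (95% exact binomial interval 23.2 to 23.9) and in Rb1L/L 2 in 33.1% (32.7 to 33.5). With Rb1L/L 2 in place of Rb1L/L 1, these shares were 23.2% and 32.8%. Regions of WT 2 that were absent from Rb1L/L 1 had a peak in WT 1 in 21.4% and in Rb1L/L 2 in 38.6%, and those absent from Rb1L/L 2 had one in WT 1 in 21.5% and in Rb1L/L 1 in 37.0%. In all 4 choices, which share libraries and are not independent, the held-out Rb1L/L library called more of the regions than the held-out WT library did.

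The Rb1L/L libraries were also ahead before any choice: among all regions of WT 1 without condensin II, 54.6% had a peak in WT 2 and 67.2% in Rb1L/L 2. With the same number of 195239 top-scoring peaks from each TFIIIC list, the choice in WT 1 against Rb1L/L 1 gave 24.3% and 23.9%, a difference of 0.39 percentage points in favour of WT in place of −9.58. The other 3 choices then gave −0.38, −3.31 and −2.17 points. Both shares were higher at the highest WT scores: at a score of 500 or more in WT 1, 227 regions absent from Rb1L/L 1 had a peak in WT 2 in 48.0% (41.4 to 54.7) and in Rb1L/L 2 in 64.8% (58.2 to 71.0). At the same score in WT 2, 3220 regions absent from Rb1L/L 1 had one in WT 1 in 32.9% and in Rb1L/L 2 in 63.2%. Among the regions of that choice split by WT 2 score into 4 equal classes, the WT 1 share was 19.62%, 19.61% and 20.2% in the 3 lower classes from the lowest up, and 24.2% in the part of the highest class that scored under 500.

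The same reading at regions that did carry a condensin II peak went the other way. Of 5955 such regions with a peak in WT 1 and none in Rb1L/L 1, WT 2 had a peak in 35.6% (34.4 to 36.9) and Rb1L/L 2 in 24.95% (23.9 to 26.1). The other 3 choices gave 35.5% and 25.1%, 38.7% and 30.0%, and 39.0% and 29.3% for the held-out WT and Rb1L/L library. The difference between genotypes was thus 8.65 to 10.7 points at condensin II regions and −17.2 to −9.58 points away from them, on opposite sides of 0 in each of the 4 choices. The classes already differed before any choice: over all regions of the chosen WT library, the held-out WT share minus the held-out Rb1L/L share was −3.71 to 2.50 points with condensin II and −24.1 to −12.4 points without. In points, choosing regions absent from 1 Rb1L/L library moved the difference towards WT in both classes and all 4 choices. Absence from 1 Rb1L/L list favours absence from the other by the way of choosing, so this shift is not a result about the regions. Both held-out shares also fell with the choice, which by itself changes the size of a difference in points. With equal numbers of top-scoring peaks, the differences at condensin II regions were 13.1 to 24.8 points, and at a TFIIIC score of at least 100 they were −0.36 to 15.9 points, with the choice in WT 2 against Rb1L/L 1 on the far side of 0. No p-value belongs to this contrast, since 2 libraries per genotype are shared among the choices.

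**Figure D3:**
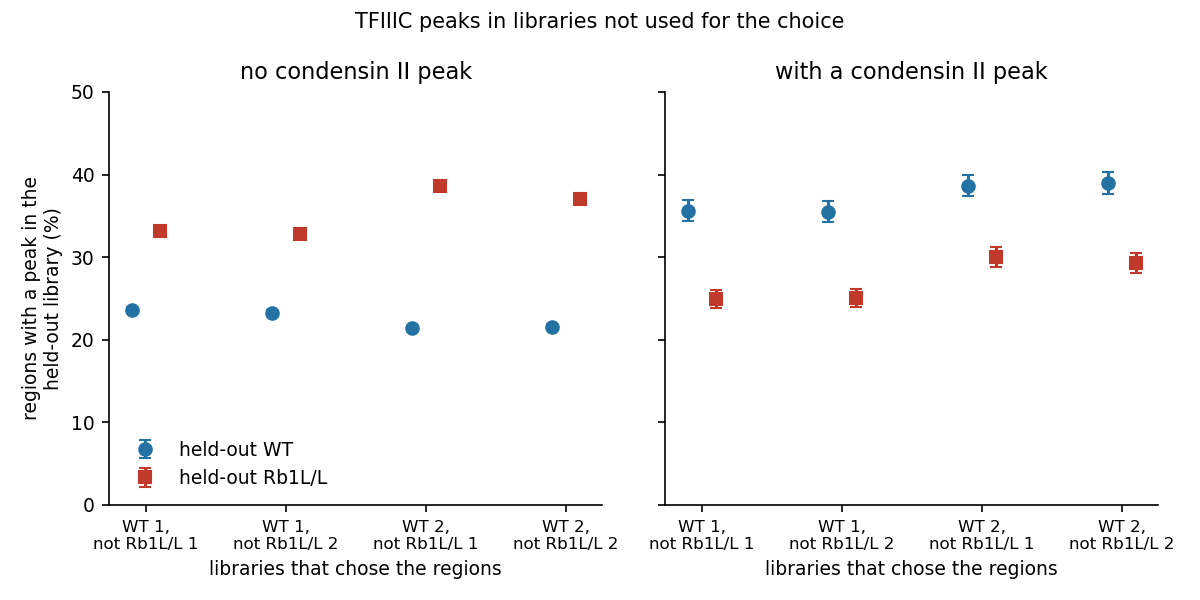
Percent of regions with a TFIIIC peak (y axis) in the WT (circles) and Rb1L/L (squares) library that was not used for choosing them, for the 4 choices of 1 WT library with a peak and 1 Rb1L/L library without (x axis), at regions without (left) and with (right) a condensin II peak; bars are 95% exact binomial intervals. Held-out Rb1L/L values lie above WT on the left, at 32.8 to 38.6% against 21.4 to 23.6%, and below WT on the right.

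H3K27me3 was found at few members. It overlapped 2.41% of members in WT 1 (95% exact binomial interval 2.03 to 2.84), 3.92% in WT 2 (3.44 to 4.46), 3.84% in Rb1L/L 1 (3.35 to 4.37) and 5.42% in Rb1L/L 2 (4.85 to 6.04). Rb1L/L 1 was below WT 2 by 220 against 225 members, so the genotypes overlapped by a few regions; over all merged TFIIIC regions they did not, with 2.55% and 4.25% in WT and 4.64% and 5.78% in Rb1L/L. Their means were 3.16 ± 1.07% and 4.63 ± 1.12% (SD, n = 2 each), a difference of 1.46 points (exact permutation test, two-sided, p = 0.667), where 2 against 2 libraries cannot give less than 0.333. With equal numbers of top-scoring H3K27me3 peaks, WT had 2.41% and 2.65% of members marked and Rb1L/L had 2.89% and 3.14%, and with a peak allowed within 1000 bp the shares were 4.17% and 6.73% against 6.84% and 8.98%; under both rules both Rb1L/L libraries lay above both WT libraries (exact permutation p = 0.333). The shortest H3K27me3 list, WT 1 with 24634 peaks, gave the lowest share and the longest, Rb1L/L 2 with 55620, the highest; WT 2 and Rb1L/L 1 had lists of 42944 and 43610 peaks.

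Within each library, members carried the mark more often than the regions of all 4 TFIIIC libraries. They carried it less often than the mixed pairings or the Rb1L/L-only regions. Regions of all 4 TFIIIC libraries without condensin II had it in 1.55%, 2.51%, 2.74% and 3.38% (WT 1, WT 2, Rb1L/L 1, Rb1L/L 2), which members exceeded by 1.55, 1.57, 1.402 and 1.61 times. The size of this ratio depended on the overlap rule. At 1 bp overlap its log2 values were 0.63, 0.65, 0.49 and 0.68 in the same order. With at least 50% of the region covered they were 1.48, 1.38, 1.17 and 1.53. Between genotypes the ratio at 1 bp overlap had log2 means of 0.64 ± 0.01 in WT and 0.59 ± 0.14 in Rb1L/L (SD, n = 2 each, difference −0.055, two-sided exact permutation p = 1). The size of this difference was below the SD in Rb1L/L and above that in WT. Rb1L/L-only regions without condensin II had the mark in 3.17%, 5.24%, 5.78% and 7.37%, so that members had 0.76, 0.75, 0.66 and 0.74 of their share. The mixed pairings without condensin II, about as narrow as members, had it in 2.74%, 4.69%, 5.09% and 6.50%. Members had 0.88, 0.84, 0.75 and 0.83 of that share. Against all merged TFIIIC regions, members stood at 0.94, 0.92, 0.83 and 0.94 of the share, close to the background. WT-only regions at condensin II had the lowest shares, 0.85%, 1.39%, 2.63% and 1.70%.

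**Figure D4:**
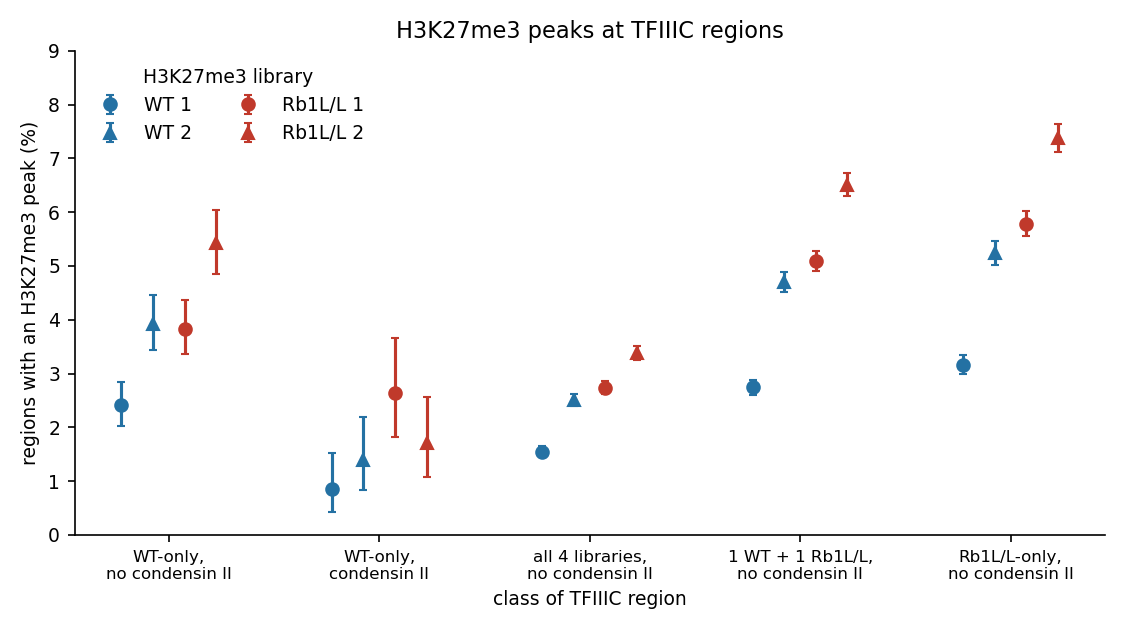
Percent of TFIIIC regions with an H3K27me3 peak (y axis) in 5 classes of regions (x axis), for the 2 WT (blue) and 2 Rb1L/L (red) H3K27me3 libraries; bars are 95% exact binomial intervals. At members the values run from 2.41 to 5.42%. In each library they lie above those at regions of all 4 TFIIIC libraries and below those at the mixed pairings and the Rb1L/L-only regions.

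No H3K27me3 library had a peak at 5248 members (91.5%), where the share over all merged regions was 90.9%. All 4 libraries had one at 53 members (0.92%), against 1.25% over all merged regions. Only in both Rb1L/L libraries was it found at 29 members (0.51%), where the background was 0.669%, and only in both WT libraries at 6 (0.10%), where the background was 0.091%. Each of these shares lay within 0.6 percentage points of its background. Where a member was marked, the H3K27me3 peak covered a median of 57.3% of it in WT 1, 59.7% in WT 2, 60.9% in Rb1L/L 1 and 69.7% in Rb1L/L 2.

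The 53 members marked in all 4 libraries were spread over 16 chromosomes, with 7 on chromosome 5 and 6 each on chromosomes 7 and 8. The one with the highest lower WT TFIIIC score lay on chromosome 7 from 108573806 to 108574794, with TFIIIC scores of 539 and 372 in WT 1 and WT 2. Its H3K27me3 scores were 423 and 444 in WT and 333 and 1042 in Rb1L/L. The next, on chromosome 11 from 83233527 to 83234481, had TFIIIC scores of 360 and 515 and an Rb1L/L TFIIIC peak 84 bp away, and H3K27me3 scores of 474 and 1060 in WT and 2224 and 1309 in Rb1L/L. Another, on chromosome 8 from 87454342 to 87455380, had a condensin II peak 1291 bp away and TFIIIC scores of 333 and 526.

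The nearest peak of any of the 4 condensin II lists was a median of 13645 bp away (quartiles 4626 and 35757 bp), against 14616 bp over all merged regions, some of which overlap it, and 15608 bp for the mixed pairings without condensin II. It was within 1000 bp of 466 members (8.13%) and within 5000 bp of 1507 (26.3%), and 1074 members (18.7%) had none within 50000 bp. By list, 18.7% of members had a WT CAP-H2 peak within 5000 bp and 19.2% an Rb1L/L one, against 16.8% and 16.4% of the regions of all 4 TFIIIC libraries without condensin II. For CAP-D3 the shares were 8.93% and 7.38% of members, against 8.46% and 7.09%. Members and constant TFIIIC regions thus differed by at most 2.77 points in this measure, in lists of 1 library each that allow no test. The Rb1L/L-only regions had lower shares than both, with 14.0% and 13.7% near a WT and an Rb1L/L CAP-H2 peak. For CAP-D3 they had 6.70% and 5.37%. The median distance to any condensin II peak was 16292 bp for regions of all 4 libraries and 18438 bp for Rb1L/L-only regions, both without condensin II.

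Across chromosomes, members made up 5.72% (chromosome 15, 209 of 3651, interval 4.99 to 6.53) to 7.47% (chromosome 9, 348 of 4657, 6.73 to 8.27) of the WT regions without condensin II, where the mean over all was 6.53%. They occurred in 1898 of the 2419 windows of 1 Mb that held a TFIIIC region, with a median of 2 per window where there were any. Neighbouring members were a median of 211652 bp apart, and 227 of 5716 neighbouring pairs (3.97%) lay within 10000 bp of each other. In windows grouped by their number of TFIIIC regions, the members' share of the WT regions was 4.19% in the sparsest of 4 equal classes, 6.48% and 8.72% in the next 2 and 5.96% in the densest.

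One stretch of 3 Mb on chromosome 7, from 21000001 to 24000000, stood apart; it was singled out after its values were seen. Its 3 windows held 15, 19 and 19 members, where no other window held more than 12. Regions with a TFIIIC peak numbered 110, 97 and 129 per window in WT 1 and 67, 61 and 88 in WT 2, against 50, 42 and 74 in Rb1L/L 1 and 32, 38 and 50 in Rb1L/L 2. In each of the 3 windows both WT libraries were above both Rb1L/L libraries. Of the 2181 windows with a mean of at least 30 such regions, both WT libraries were higher in 4 (0.183%) and both Rb1L/L libraries in 2064 (94.6%); the fourth was on chromosome 2 from 44000001 to 45000000, with 43 and 42 regions in WT and 38 and 34 in Rb1L/L.

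The stretch held 385 TFIIIC regions, of which 183 were called in both WT libraries and 53 of these were members (29.0%, against 6.53% over all chromosomes). Only 4 of its regions were called in both Rb1L/L libraries and no WT library. WT 1 alone called 128 and WT 2 alone 19, while the Rb1L/L libraries alone called 7 and 5, so the WT libraries also differed from each other. As peaks per 1000 of the list, the stretch had 1.77 in WT 1, 0.95 in WT 2, 0.60 in Rb1L/L 1 and 0.43 in Rb1L/L 2. In the 3 Mb before and the 3 Mb after it, counted together, the same libraries had 4.80, 4.69, 4.11 and 4.10. These flanks are longer in sum than the stretch, and the values are not scaled to length. The gap between WT 1 and WT 2 in the stretch was wider than that between WT 2 and Rb1L/L 1.

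Members in the stretch scored higher and lay farther from any Rb1L/L peak than members elsewhere. Since the stretch was singled out on the same TFIIIC calls and is sparse in Rb1L/L peaks, the distance is not a separate trait of these members. Their lower WT score had a median of 228 (87.3 to 668), against 143 for the 5682 other members, and the nearest Rb1L/L peak was a median of 8361 bp away, against 1226 bp. Among the 200 members with the highest lower score, 16 lay here, although the stretch holds 0.92% of the members. The 87 regions that all 4 libraries called in the stretch had median TFIIIC scores of 439 and 661 in WT and 604 and 560 in Rb1L/L, above the medians of 219, 434, 428 and 575 over all such regions without condensin II in every library except Rb1L/L 2. No CAP-D3, CAP-H2 or H3K27me3 list of either genotype had a peak in the stretch, and its members were 224524 to 1775813 bp from the nearest condensin II peak. The input libraries have no peak list and were not analysed here.

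**Figure D5:**
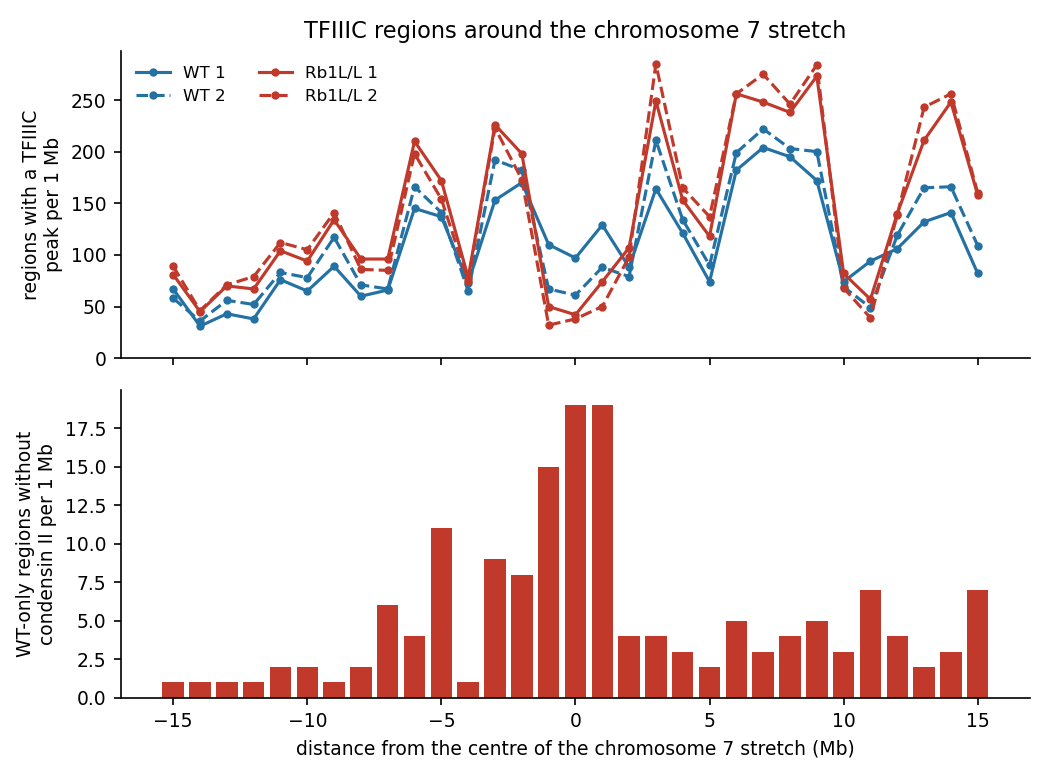
Top, number of regions with a TFIIIC peak per 1 Mb window in the 2 WT (blue) and 2 Rb1L/L (red) libraries; bottom, number of members per window, both against distance from the centre of the chromosome 7 stretch (x axis, Mb). In the 3 central windows, with 15, 19 and 19 members, the WT lines lie above the Rb1L/L lines; in most other windows shown the order is the opposite.

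The 12 strongest members, ranked by the lower of the 2 WT scores, included 8 on chromosome 7, and 6 of these lay in the stretch of 3 Mb or in the 1 Mb before it. Their leader was on chromosome 7 from 150599467 to 150600757, with scores of 674 in WT 1 and 823 in WT 2, at percentiles 97.2 and 90.9 of the lists, and an Rb1L/L peak stood 139 bp away from it. Within the stretch, the region from 22535065 to 22536379 had scores of 668 and 851 and no Rb1L/L peak for 19370 bp, and that from 23758306 to 23759461 had scores of 605 and 759 and none for 19350 bp. The region from 22761350 to 22762587, with scores of 635 and 752, had its nearest Rb1L/L peak at 1610 bp. Farther along chromosome 7, the region from 32587243 to 32588608 scored 723 and 568 and lay 38883 bp from an Rb1L/L peak, the longest such gap among the 12.

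Off chromosome 7, the strongest member was on chromosome 18 from 36831833 to 36833977, with scores of 645 and 1003. It was also the third widest, at 2145 bp, and lay 231 bp from an Rb1L/L TFIIIC peak and 1309 bp from a condensin II peak. Chromosome 15 had 2 of the 12, from 88412279 to 88413267 (scores 547 and 813) and from 98282309 to 98283360 (503 and 693), with Rb1L/L peaks 559 and 317 bp away, and chromosome 4 had 1, from 57738253 to 57739435 (480 and 482), with one 407 bp away. None of the 12 had an H3K27me3 peak in any library, and 7 had an Rb1L/L TFIIIC peak within 1000 bp. The widest member, 4066 bp on chromosome 18 from 3007357 to 3011422, scored 383 and 256 and had no Rb1L/L peak for 8947 bp.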

How the data were processed

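Data were 12 deposited peak lists, 1 per immunoprecipitated library; 8 input samples have no list here. Per the submitters' processing notes, the tools were Bowtie2 2.3.0 and MACS 1.4.0rc2 with the mm9 build; settings and order are not given in the sources used here. The deposited score per peak, the fifth column without a name, was taken as the MACS value (−10 times the log10 of a p-value). It was used to rank or filter within a list. Only the lower of the 2 WT scores, and the count of members with the higher score in WT 2, set raw scores of both WT lists against each other. Read depth is unknown.

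Groups came from the sample titles. Peaks on chromosomes 1 to 19 were merged at 1 bp overlap and classed by library (Python 3.11.15, pandas 2.3.3, scipy 1.17.1); the interval code was tested on simulated intervals. Shares have exact (Clopper-Pearson) 95% intervals. H3K27me3 shares were compared between genotypes by two-sided exact permutation over libraries. Members, named regions (the 12 with the highest lower WT score, the 5 widest, the 5 highest-scoring with H3K27me3 in all 4 libraries, the 3 nearest to an Rb1L/L peak and the 3 smallest overlaps outside the rule; only the leading ones are printed) and alternatives were chosen with earlier results of these data known. Coordinates are 1-based.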

Additional observations from a re-analysis of the deposited data

How the results depend on the processing

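The number of members, 5735, was 3560 when peaks up to 1000 bp apart were merged, 3186 when no Rb1L/L TFIIIC peak was allowed within 1000 bp and 10451 with equal numbers of top-scoring TFIIIC peaks. It ranged from 12674 to 36519 when 1 of the 4 TFIIIC libraries was left out, 36519 without WT replicate 1, 36204 without WT replicate 2, 12674 without Rb1L/L replicate 1 and 12872 without Rb1L/L replicate 2, since a rule on fewer libraries is easier to meet. A score of at least 100 for TFIIIC (5442) or condensin II (5832), a margin of 1000 bp from condensin II (5270) and leaving out the chromosome 7 stretch (5682, chosen after seeing the data) stayed within 1.5 times. The held-out difference at regions without condensin II, −9.58 points for WT 1 against Rb1L/L 1, was −17.2 and −15.5 for WT 2 against Rb1L/L 1 and Rb1L/L 2, −10.2 at a TFIIIC score of at least 100, and 0.39 with equal peak numbers, where its sign turned; the shorter Rb1L/L lists are part of that setting's construction. The H3K27me3 difference at members, 1.46 points, kept its sign under every setting tried, from 0.49 with equal numbers of peaks to 2.46 within 1000 bp, the settings in which the genotypes did not overlap (exact permutation p = 0.333 each), and from 0.67 to 2.26 when 1 library was left out. The log2 ratio to constant regions differed by −0.055 and changed sign with equal numbers of H3K27me3 peaks (0.034), with the region midpoint inside a peak (0.051, chosen after seeing the data) and without Rb1L/L replicate 1 (0.043; range over left-out libraries −0.15 to 0.043); the cause was not tested. With a replicate block the H3K27me3 difference stayed 1.46 (exact permutation p = 0.5, the smallest for 2 pairs) and the log2 ratio −0.055 (exact permutation p = 1). Replicate numbers shared by the genotypes had deviations that correlated by 0.29 over 1 Mb windows for H3K27me3 and TFIIIC alike, but no label says that libraries of the same number belong together. For H3K27me3, the input titles instead place WT 2 with Rb1L/L 1, whose inputs also served condensin II. In this pairing, Rb1L/L 1 had 3.84% of members marked and WT 2 had 3.92%, while Rb1L/L 2 had 5.42% and WT 1 had 2.41%. That pairing was not tested. Without read depth, no call missing from a list can be told from a weak one.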

Other observations

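On chromosome X, which was outside the choice, the same rule gave 38 regions of 1915 called in both WT libraries without condensin II (1.98%, 95% exact binomial interval 1.41 to 2.71), against 6.53% on chromosomes 1 to 19 and below each single autosome. Both Rb1L/L libraries alone called 883 of the 12542 regions on chromosome X, a lower share than on chromosomes 1 to 19 as well. There they alone called 38893 regions without and 1257 with a condensin II peak, of 423013. On chromosome Y and unplaced sequences the rule gave 12 of 435 regions (2.76%, 1.43 to 4.77). The sex of the embryos behind each library is not given in the labels, and no test was made.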
